A study of Mus musculus with 6 samples.

Results

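The genes described here encode the machinery by which a nerve terminal stores transmitter in vesicles and releases it. The list was written by gene symbol and holds 41 genes, of 18193 genes measured in all. Every member was measured on the arrays, and each was read from the probe set (a group of short array probes for 1 transcript) with the highest mean over all 6 arrays among those annotated to that gene alone. Hippocampal RNA came from 3 L26 mice and 3 wild type mice, 1 array each. L26 is a line carrying a daDREAM transgene, a dominant active form of the transcriptional repressor DREAM, and the animals were homozygous for it, while the wild type mice were littermates. All animals were adult males on a mixed C57B6xCBA background and were sampled without a stimulus. L26 is a single transgenic line, so effects of daDREAM and of the place where the transgene lies in the genome cannot be told apart, and the promoter that drives it is not given in the sources used here.

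Transmitter is loaded into synaptic vesicles by transporters, vesicles are tethered to the active zone by Rab3 GTPases and scaffold proteins, and priming factors of the Unc13 and CAPS families make them ready to fuse. Fusion is carried out by the SNARE proteins of vesicle and plasma membrane, held ready by complexins and triggered when synaptotagmins bind calcium, after which NSF and its partners take the SNARE complex apart. In the hippocampus this machinery sets the release of glutamate by pyramidal and granule cells and of GABA by interneurons. DREAM, the product of Kcnip3, is a calcium-binding protein that represses transcription by binding DNA, and the daDREAM mutant represses without answering to calcium.

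Array medians lay between 7.30 and 7.32 in L26 and between 7.27 and 7.29 in wild type, on the log2 scale in which all levels are given. Correlations across genes were 0.9974 to 0.9982 between arrays of the same group and 0.9951 to 0.9964 between the groups. All 15 markers of hippocampal neurons had mean levels above 5.95, the lower quartile of all values, and 6 of them rose and 1 fell in L26. Of 12 general neuronal markers 0 passed the threshold in limma (3 had an unadjusted p under 0.05), and their mean level per array was 12.21 to 12.22 in L26 and 12.25 to 12.27 in wild type. Oligodendrocyte markers rose in 9 of 11 cases and vascular markers in 7 of 10, and their mean levels did not overlap between the groups (11.60 to 11.82 in L26 and 11.30 to 11.41 in wild type for oligodendrocytes, 9.08 to 9.18 in L26 and 8.68 to 8.70 in wild type for vessels). The part of these cell markers in the results below was not tested, and in such bulk tissue fewer cells of a type and less RNA per cell cannot be told apart. Kcnip3 itself averaged 10.15 in L26 and 10.32 in wild type, and whether its probe set covers the transgene is not known here.

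Most members of the release machinery did not pass the test, and of those that did 5 were lower and 1 was higher in L26. The priming factor Unc13c, the complexins Cplx2 and Cplx3, the small GTPase Rab3b and the vesicular glutamate transporter Slc17a6 fell, by 0.38 to 0.67 on the log2 scale, while the priming factor Unc13b rose by 0.22. The fall of Cplx2 was seen on 1 of its 3 probe sets. The other 35 members did not pass the threshold, an adjusted p under 0.05 in limma over all genes. Thus 6 of 41 members (14.6%) passed, against 5.19% of all genes, with 5 lower (12.2%, against 2.57% of all genes) and 1 higher (2.44%, against 2.63%). With arrays centred on their medians the split was 9 lower and 0 higher (22% of members in all, against 5.89% of all genes). Centring also left 57.5% of all genes with a difference below 0, against 45.7% without it. The groups did not overlap for 21 members (51.2%, against 24.1% of all genes), with L26 below wild type for 17 (41.5%, against 11%) and above it for 4 (9.76%, against 13%).

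**Figure D1:**
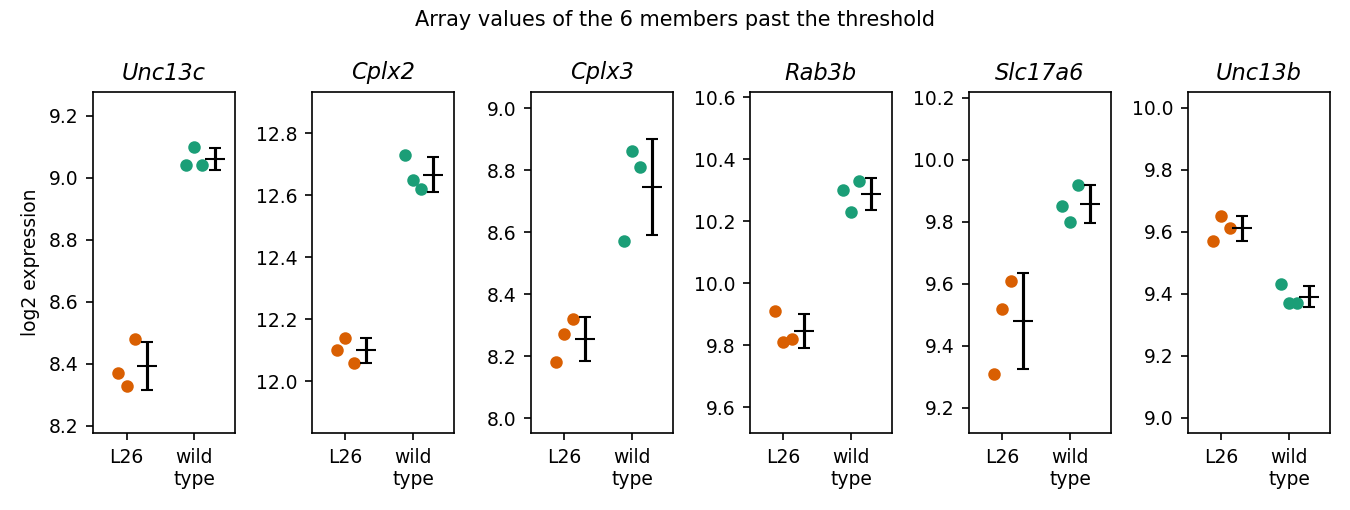
Log2 expression (y axis, a window of equal height for each gene) of the 6 members past the threshold, with 3 L26 arrays (orange, left) and 3 wild type arrays (green, right) as points and the mean ± SD as a black bar. L26 points lie below all wild type points for Unc13c, Cplx2, Cplx3, Rab3b and Slc17a6 and above them for Unc13b.

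Promoter sequences of these 6 genes are shown because DREAM is known to act through promoter elements whose core reads GTCA. RefSeq windows of 300 bases (GRCm38.p6), 250 before and 50 from an annotated transcription start on, were at hand for 32 of the 41 members. They are given 5′ to 3′ along the gene, with each GTCA, on either strand (GTCA or TGAC), in capitals. Slc17a6 has another annotated start whose window, with 3 matches, is not printed.
Unc13c, chr9:73968988-73969287, minus strand: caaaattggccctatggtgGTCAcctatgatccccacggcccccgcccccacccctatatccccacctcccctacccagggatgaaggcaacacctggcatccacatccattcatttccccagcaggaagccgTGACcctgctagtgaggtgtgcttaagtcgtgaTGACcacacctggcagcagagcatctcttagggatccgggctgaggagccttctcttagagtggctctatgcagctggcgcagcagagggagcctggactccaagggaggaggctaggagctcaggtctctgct
Cplx2, chr13:54302306-54302605, plus strand: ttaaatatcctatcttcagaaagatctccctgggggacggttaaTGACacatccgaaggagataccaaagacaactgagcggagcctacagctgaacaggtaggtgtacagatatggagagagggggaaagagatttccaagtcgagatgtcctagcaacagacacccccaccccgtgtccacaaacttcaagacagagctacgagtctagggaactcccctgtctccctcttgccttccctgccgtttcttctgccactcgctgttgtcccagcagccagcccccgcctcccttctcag
Cplx3, chr9:57606232-57606531, minus strand: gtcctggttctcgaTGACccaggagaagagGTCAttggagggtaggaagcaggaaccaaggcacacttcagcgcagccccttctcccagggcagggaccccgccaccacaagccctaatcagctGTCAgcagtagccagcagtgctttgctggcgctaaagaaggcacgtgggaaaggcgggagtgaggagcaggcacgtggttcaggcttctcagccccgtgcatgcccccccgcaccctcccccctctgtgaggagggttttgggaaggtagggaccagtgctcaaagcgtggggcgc
Rab3b, chr4:108878820-108879119, plus strand: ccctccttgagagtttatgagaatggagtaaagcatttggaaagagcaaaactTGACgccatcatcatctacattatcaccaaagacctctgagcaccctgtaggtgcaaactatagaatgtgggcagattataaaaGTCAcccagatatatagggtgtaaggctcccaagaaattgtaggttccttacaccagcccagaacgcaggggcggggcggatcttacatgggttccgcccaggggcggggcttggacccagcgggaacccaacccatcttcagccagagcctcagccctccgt
Slc17a6, chr7:51621580-51621879, plus strand: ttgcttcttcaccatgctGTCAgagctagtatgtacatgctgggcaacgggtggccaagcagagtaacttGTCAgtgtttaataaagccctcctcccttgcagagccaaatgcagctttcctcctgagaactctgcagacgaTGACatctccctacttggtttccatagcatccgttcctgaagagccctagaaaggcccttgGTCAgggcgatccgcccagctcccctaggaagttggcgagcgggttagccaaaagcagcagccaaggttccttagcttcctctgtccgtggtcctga
Unc13b, chr4:43058703-43059002, plus strand: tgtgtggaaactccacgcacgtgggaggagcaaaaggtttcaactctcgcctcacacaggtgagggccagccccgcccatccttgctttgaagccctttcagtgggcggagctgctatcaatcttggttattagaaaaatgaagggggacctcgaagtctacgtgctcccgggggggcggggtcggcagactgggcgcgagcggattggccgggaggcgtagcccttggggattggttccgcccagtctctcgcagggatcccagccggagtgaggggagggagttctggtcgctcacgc

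All 6 windows of the 5 genes that fell held the GTCA core, with 1 match in Cplx2, 2 in Rab3b, 3 in Cplx3, 3 in Unc13c and 4 in the printed Slc17a6 window, and the Unc13b window held none. This core is short and common: it was found in 85.2% of all 32851 promoter windows and in 31 of 40 windows of the members (77.5%). The full cAMP response element TGACGTCA, which contains the core on both strands, stood in 2 of the 40 member windows (5%), those of Napa and Syn1, and in 1.79% of all windows. The AP-1 motif TGACTCA, read on either strand, which overlaps the same letters, was found in 1 member window (2.5%), of Syt2, and in 5.2% of all windows. These matches describe letters in the windows and are not measured binding.

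Among the priming factors, which bring docked vesicles into a state ready to fuse, the Unc13 paralogs had differences of opposite sign. Unc13c, a paralog known mainly from cerebellar granule cells, had 8.37, 8.33 and 8.48 in L26, against 9.04, 9.10 and 9.04 in wild type. The highest L26 array lay 0.56 below the lowest wild type array. Its difference of -0.67 (SE 0.06, adjusted p = 0.000425) is a 1.59-fold lower level, and it kept its sign and passed in all 14 alternative analyses, with values between -0.71 and -0.37. Another Unc13c probe set, 1437319_at, gave 7.59, 7.24 and 7.51 in L26 and 7.99, 7.91 and 7.93 in wild type, a fall of 0.50 (SE 0.09, adjusted p = 0.015 over probe sets). The remaining Unc13c probe set, 1430511_at, was dim, with 5.56, 5.53 and 5.58 in L26 and 5.43, 5.51 and 5.57 in wild type, and these groups overlapped.

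Unc13b, whose product primes vesicles at a subset of hippocampal glutamate synapses, had 9.57, 9.65 and 9.61 in L26, against 9.43, 9.37 and 9.37 in wild type. All L26 arrays were higher, by 0.22 in the mean (SE 0.05, adjusted p = 0.0442). Over probe sets it had an adjusted p of 0.0615. The call was lost with the replicate number as a block (adjusted p = 0.0987), with arrays centred on their medians (0.0702) and without any 1 of the 6 arrays (0.0666 to 0.147). Its other probe set, 1443308_at, was dim, with 5.35, 5.23 and 5.28 in L26 and 5.07, 5.20 and 5.16 in wild type, and did not pass (difference 0.14, SE 0.06, adjusted p = 0.257 over probe sets). Unc13a, the main priming factor of forebrain glutamate synapses, had 9.61, 9.69 and 9.66 in L26 and 9.82, 9.66 and 9.69 in wild type, so the groups overlapped (difference -0.07, 95% interval -0.20 to 0.06).

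The CAPS proteins act in priming of dense-core and synaptic vesicles. Cadps2 had 11.50, 11.48 and 11.43 in L26, against 11.32, 11.15 and 11.22 in wild type. These groups did not overlap, and the difference of 0.24 (SE 0.06) missed the threshold (adjusted p = 0.0534), although it passed in 6 of 14 alternatives, among them a threshold of 0.1 and the repeated quantile normalization (0.0386). Cadps averaged 12.36 ± 0.05 in L26 and 12.43 ± 0.02 in wild type (SD, n = 3 each).

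Complexins bind the assembled SNARE complex, where they hold back spontaneous fusion and assist fusion on calcium entry. Cplx2, a complexin known mainly from excitatory neurons of the hippocampus, had 12.10, 12.14 and 12.06 in L26, against 12.73, 12.65 and 12.62 in wild type on the probe set that represents it. The difference was -0.57 (SE 0.05, adjusted p = 0.000759), a 1.48-fold lower level. The 2 other Cplx2 probe sets did not show it. Probe set 1455672_s_at, of like brightness, had 12.24, 12.16 and 12.27 in L26 and 12.23, 12.17 and 12.17 in wild type. Related transcripts may also reach that probe set. On 1436383_at the values were 11.30, 11.20 and 11.33 in L26 and 11.23, 11.16 and 11.11 in wild type. With the mean of all probe sets the Cplx2 difference was -0.14 and was no longer past the threshold (adjusted p = 0.134), so the call rests on 1 of 3 probe sets.

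Cplx3, a complexin known from retinal ribbon synapses and from neurons deep in the cortex, had 8.18, 8.27 and 8.32 in L26, against 8.57, 8.86 and 8.81 in wild type. All L26 arrays were lower, by 0.49 in the mean (SE 0.08, adjusted p = 0.0111), and it passed in all 14 alternatives (adjusted p at most 0.046). It has 1 probe set, so no other could be compared. A list of 12 cortical and subicular markers was read on the same arrays, and its signs were mixed. In it 5 genes fell, most of all Ccn2 and Tshz2, markers of cortical neurons, by 0.69 and 0.60. The remaining 7 missed the threshold, and 5 of the 12 had differences above 0. Mean levels of the list ran from 9.16 to 9.20 in L26 and from 9.33 to 9.41 in wild type. The part of these markers in the Cplx3 result was not tested. Cplx1 had 13.11, 13.11 and 13.08 in L26, against 13.20, 13.20 and 13.19 in wild type. This narrow separation amounted to -0.10 and did not pass (adjusted p = 0.297). The 2 other Cplx1 probe sets had -0.13 without overlap and -0.17 with overlap. Neither passed over probe sets (limma, unadjusted p = 0.0442 and 0.0388, adjusted p = 0.259 and 0.243).

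Rab3 proteins are vesicle GTPases that link vesicles to the active zone. Rab3b, which acts in plasticity of hippocampal inhibitory terminals, had 9.91, 9.81 and 9.82 in L26, against 10.30, 10.23 and 10.33 in wild type. The groups stood well apart, with a difference of -0.44 (SE 0.06, adjusted p = 0.00337), a 1.36-fold lower level, and all 14 alternatives called it (-0.47 to -0.42). It too has a single probe set. Of 10 GABAergic markers 2 fell (Reln and Pvalb) and 8 did not pass, and the list's mean level was 10.91 to 10.92 in L26 and 10.97 to 11.00 in wild type. Their part in the Rab3b result was not tested. Rab3a, the most studied family member at central synapses, had overlapping values with a difference of -0.02 (95% interval -0.16 to 0.12), and Rab3c had 0.06 (-0.07 to 0.19). Another Rab3c probe set, 1432415_at, averaged 6.82 in L26 and 6.42 in wild type, without overlap. That difference of 0.40 did not pass (limma, unadjusted p = 0.00465, adjusted p = 0.0803 over probe sets). The remaining Rab3c probe sets had differences from -0.02 to 0.01, with overlap.

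Vesicular glutamate transporters fill vesicles with glutamate. Slc17a6 encodes the form of thalamic and other subcortical neurons, and it had 9.31, 9.52 and 9.61 in L26, against 9.85, 9.80 and 9.92 in wild type. The difference was -0.38 (SE 0.08, adjusted p = 0.0303). Its other probe set, 1418610_at, also fell, with 8.07, 8.48 and 8.32 in L26 and 8.79, 8.90 and 8.70 in wild type (-0.51, SE 0.10, adjusted p = 0.026 over probe sets). L26 replicate 1 was the lowest array on both, and without it the difference was -0.29 (adjusted p = 0.0538). The call was lost without any 1 of 5 arrays (adjusted p 0.0538 to 0.0912), all but L26 replicate 3. Of 12 thalamic and habenular markers 2 fell, among them Ntng1 by 0.52, 1 rose (Zic1, by 0.96) and 9 did not pass, 3 of the 12 lay below the lower quartile of all values, and the list's mean level was 7.80 to 7.85 in L26 and 7.67 to 7.86 in wild type. Their part in the Slc17a6 result was not tested.

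Slc17a7, the glutamate transporter of hippocampal pyramidal and granule cells, had 10.97, 10.87 and 11.09 in L26, against 11.19, 11.03 and 10.78 in wild type. These groups overlapped fully, and the difference of -0.02 (SE 0.10) had a 95% interval from -0.25 to 0.21.

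**Figure D2:**
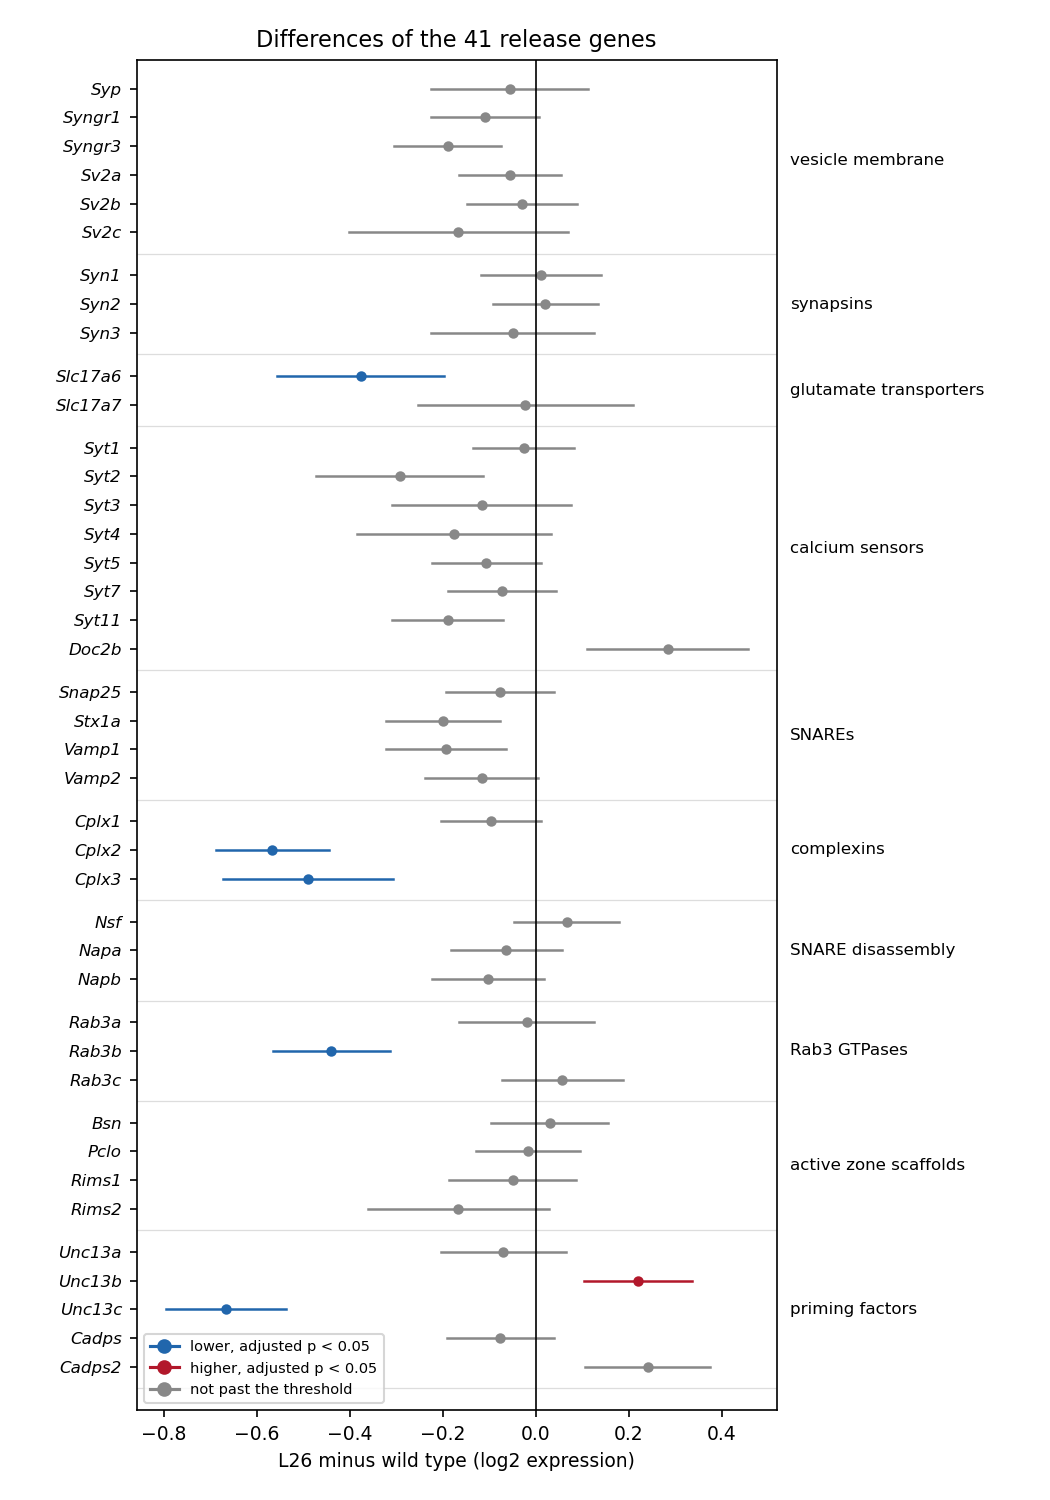
Difference between L26 and wild type (x axis, log2 expression) for the 41 members, grouped by role, with the 95% interval from limma as a line. Blue marks the 5 members that fell, red the 1 that rose and grey the 35 that did not pass, of which the differences lie between -0.29 and 0.28.

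Synaptotagmins and Doc2b were grouped as calcium sensors of release, although Syt11 in this group does not bind calcium. These 8 genes had 7 differences below 0 and none past the threshold in limma, with 3 at an unadjusted p under 0.05 (Syt2, Syt11 and Doc2b). Syt1, the fast sensor of most forebrain synapses, had 13.89, 13.88 and 13.88 in L26 and 13.94, 13.89 and 13.90 in wild type, a difference of -0.03 (95% interval -0.14 to 0.08). Syt2, the fast sensor of many brainstem and some inhibitory synapses, had 8.18, 8.16 and 7.97 in L26, against 8.29, 8.52 and 8.38 in wild type. The Syt2 groups did not overlap, but the difference of -0.29 (SE 0.08) missed the threshold (adjusted p = 0.0697). It did pass with centred arrays (0.0496) and with the mean of its probe sets (0.0449).

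Doc2b, a high-affinity calcium sensor linked to spontaneous and asynchronous release, had a difference above 0. Its values were 10.53, 10.32 and 10.31 in L26, against 10.04, 10.06 and 10.21 in wild type, a difference of 0.28 (SE 0.08, adjusted p = 0.0697). On its other probe set the values were 9.10, 8.99 and 9.11 in L26 and 8.67, 8.75 and 8.97 in wild type, again without overlap and not past the threshold (adjusted p = 0.115 over probe sets). Syt11, a synaptotagmin that does not bind calcium, averaged 12.82 ± 0.06 in L26 and 13.01 ± 0.03 in wild type (SD, n = 3 each), without overlap (adjusted p = 0.0778), on a probe set that related transcripts may also reach. Its 4 other probe sets had differences between -0.18 and 0.00. Syt3, Syt4, Syt5 and Syt7, the last a slow sensor of asynchronous release, had differences from -0.18 to -0.07. Other Syt7 probe sets disagreed in sign, with 0.17 on 1439633_at and -0.23 on 1441927_at. Both were without overlap and not past the threshold (adjusted p = 0.138 and 0.186 over probe sets).

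SNARE proteins form the fusion complex, with Snap25 and Stx1a on the plasma membrane and Vamp1 and Vamp2 on the vesicle. None of the 4 passed in limma (2 had an unadjusted p under 0.05), and all had differences below 0. Stx1a had 11.46, 11.43 and 11.42 in L26, against 11.58, 11.71 and 11.62 in wild type, a difference of -0.20 (SE 0.05, adjusted p = 0.0711). Related transcripts may also reach this probe set. The other Stx1a probe set, 1448366_at, had -0.22, also without overlap. For Vamp1 the values were 10.50, 10.51 and 10.59 in L26, against 10.71, 10.80 and 10.67 in wild type (-0.19, SE 0.06, adjusted p = 0.0917). Vamp2, the main vesicle SNARE of the forebrain, had -0.12 (adjusted p = 0.265) and Snap25 had -0.08 (adjusted p = 0.459). The other Vamp2 probe set, 1420833_at, had -0.33 with overlap (limma, unadjusted p = 0.0328, adjusted p = 0.224 over probe sets). On the other Snap25 probe set, 1447763_at, the difference was 0.18 with overlap (limma, adjusted p = 0.382 over probe sets). The 95% interval of the Snap25 difference ran from -0.19 to 0.04.

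Recycling of the SNAREs needs the ATPase Nsf and its adaptors Napa and Napb. Nsf was the SNARE disassembly gene with a difference above 0 (13.68, 13.70 and 13.71 in L26, against 13.67, 13.59 and 13.63 in wild type, 0.07). Napa had -0.06 and Napb -0.10, and on the representing probe sets none of the 3 passed in limma or had an unadjusted p under 0.05. The other Napa probe set, 1416192_at, had -0.22 without overlap (limma, unadjusted p = 0.0101, adjusted p = 0.121 over probe sets). All 6 Napb probe sets had differences below 0, from -0.32 to -0.10, none past the threshold over probe sets. The unadjusted p in limma was under 0.05 on 1423172_at (0.0225), 1427470_s_at (0.00636) and 1452444_at (0.00823).

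Genes of vesicle membrane proteins had 6 of 6 differences below 0, none past the threshold in limma and 1 at an unadjusted p under 0.05. Syngr3, a synaptogyrin, had 10.79, 10.76 and 10.75 in L26, against 10.96, 11.00 and 10.91 in wild type. The groups did not overlap (-0.19, SE 0.05, adjusted p = 0.0684), and the call was made with centred arrays (0.045), without dim probe sets (0.0468) and with an intensity trend (0.0225). Syngr1 had -0.11 (adjusted p = 0.273). Syp, synaptophysin, the common marker of synaptic vesicles, had 12.12, 12.08 and 12.18 in L26 and 12.33, 12.17 and 12.05 in wild type, with the groups overlapping (-0.06, 95% interval -0.23 to 0.11). On the other Syp probe set, 1456249_x_at, levels averaged 6.25 in L26 and 5.93 in wild type, without overlap. That difference of 0.32 did not pass (limma, unadjusted p = 0.00523, adjusted p = 0.0853 over probe sets), and related transcripts may also reach this probe set. Sv2a, a vesicle glycoprotein that is the target of the antiepileptic levetiracetam, had -0.06 and its relative Sv2b -0.03. Sv2c was dim, at 5.51 ± 0.13 in L26 and 5.67 ± 0.20 in wild type (SD, n = 3 each), below the lower quartile of all values.

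Synapsins tether vesicles to each other and to the cytoskeleton in the reserve pool. By the probe sets that represent them they had differences of 0.01 for Syn1, 0.02 for Syn2 and -0.05 for Syn3, none with an unadjusted p under 0.05. The 6 probe sets of Syn2 disagreed, however. Probe set 1449030_at had 11.24, 11.27 and 11.14 in L26, against 12, 12.01 and 11.78 in wild type, a fall of 0.71 (SE 0.08, adjusted p = 0.00103 over probe sets). Probe set 1460230_at had 11.70, 11.77 and 11.66 in L26, against 12.30, 12.29 and 12.16 in wild type, a fall of 0.54 (SE 0.06, adjusted p = 0.00173). The representing probe set, 1428460_at, had 12.47, 12.54 and 12.47 in L26 and 12.49, 12.46 and 12.47 in wild type, and 1435511_at had a difference of -0.02 with overlapping groups. So 2 of the 4 brightest Syn2 probe sets fell and the other two overlapped. The 2 dimmest had differences of 0.16 (1440762_at, without overlap, adjusted p = 0.227 over probe sets) and 0.06 (1458105_at, with overlap). Which transcript forms of Syn2 each probe set reads is not known here.

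Scaffolds of the active zone had differences from -0.17 to 0.03 on the probe sets that represent them, with none of 4 at an unadjusted p under 0.05. Bsn and Pclo, the giant scaffold proteins bassoon and piccolo, had differences of 0.03 (95% interval -0.10 to 0.16) and -0.02 (-0.13 to 0.10). Rims1, which links Rab3, calcium channels and Unc13 proteins, had 11.13, 10.99 and 11.08 in L26 and 11.06, 11.10 and 11.19 in wild type (-0.05). Its relative Rims2 had 10.79, 10.59 and 10.42 in L26 and 10.79, 10.76 and 10.75 in wild type. These L26 values of Rims2 were spread widely, and the difference of -0.17 did not pass (adjusted p = 0.321). Its 5 probe sets ranged from -0.21 to 0.02. The lowest, 1436470_at, did not overlap between the groups (limma, unadjusted p = 0.00918, adjusted p = 0.115 over probe sets). Pclo had -0.18 with overlap on 1455373_at (limma, unadjusted p = 0.0327, adjusted p = 0.224 over probe sets).

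**Figure D3:**
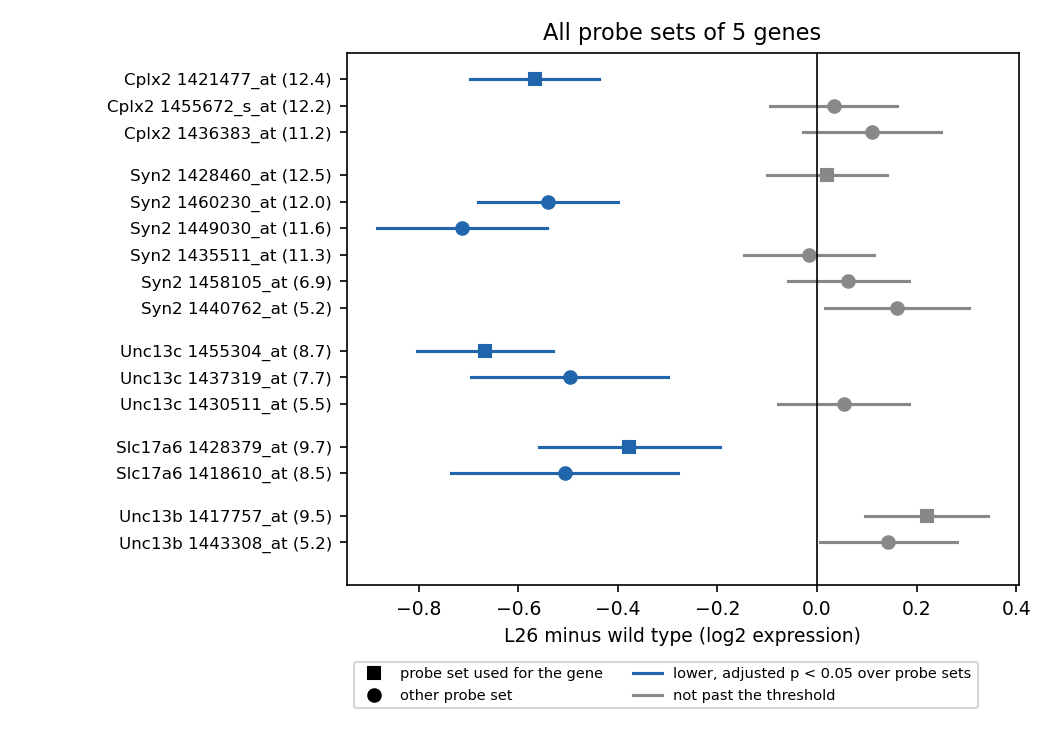
Difference between L26 and wild type (x axis, log2 expression) with its 95% interval for every probe set of 5 genes, ordered within a gene by brightness, with the mean level of the 6 arrays in brackets. Squares mark the probe set used for the gene and blue the falls past the threshold over probe sets. Cplx2 and Syn2 each have probe sets near 0 beside probe sets at -0.54 or lower, while both Slc17a6 probe sets fell.

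Of all 102 probe sets of the members 9 (8.82%) passed in limma over probe sets, against 3.92% of all probe sets. All 9 fell and 0 rose, where 1.94% of all probe sets fell and 1.98% rose. At an unadjusted p under 0.05 in limma 30 of the 102 were lower and 9 higher. No share over all probe sets is at hand to set beside that split. The 9 that passed after adjustment were both of Slc17a6, 2 each of Unc13c and Syn2 and 1 each of Cplx2, Cplx3 and Rab3b. Besides the representing ones, 61 other probe sets were read, 52 of them above the lower quartile of all values, and 36 of these 52 had the sign of the probe set that represents their gene.

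Small differences below 0 were common among the members. The difference was below 0 for 33 of 41 (80.5%), against 45.7% of all genes, with a median of -0.08 against 0.01 over all genes. With arrays centred on their medians these became 35 of 41 (85.4%) against 57.5%, and the medians -0.11 and -0.02. Among the 35 members that did not pass the median was -0.07, and for 23 of them the 95% interval lay within 0.25 of 0 on both sides. The general neuronal markers had 8 of 12 differences below 0 and a median of -0.04. These medians describe lists chosen with earlier results known and carry no test.

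**Figure D4:**
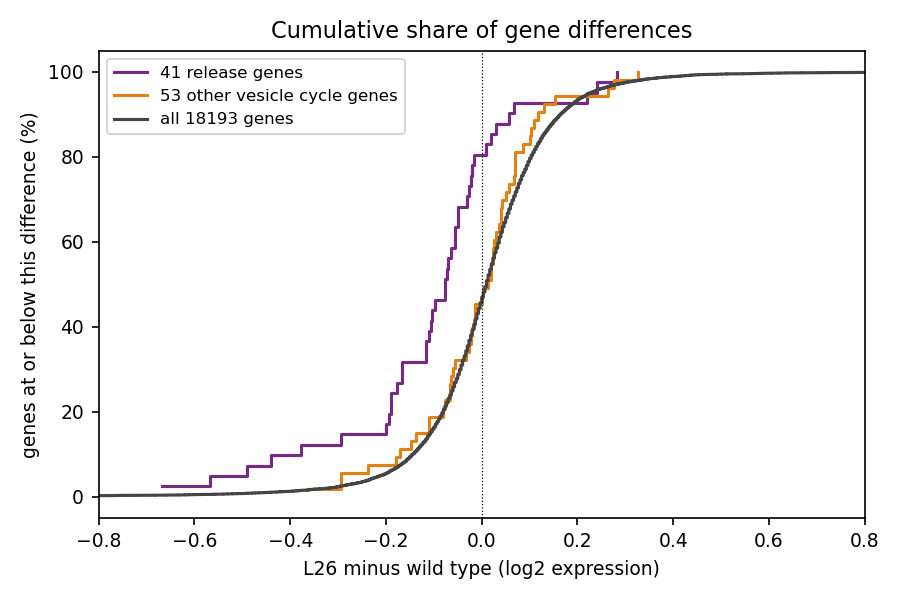
Cumulative share of genes (y axis, percent) at or below each difference between L26 and wild type (x axis, log2 expression, cropped at -0.8 and 0.8) for the 41 members, 53 other vesicle cycle genes and all 18193 genes. The curve of the members lies to the left over most of its course (median -0.08), while that of the other vesicle cycle genes (median 0.01) runs beside that of all genes (median 0.01).

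Other genes of the vesicle cycle, not among the members, were read for comparison. Of 58 listed 53 were measured by a probe set of their own. Among these 2 fell, 2 rose and 49 did not pass, where 2.57% of all genes fell and 2.63% rose (5.19% together). Their differences were below 0 for 24, where 45.7% of all genes were below 0, and had a median of 0.01. Rab3gap1, part of the enzyme that acts on Rab3, had 10.20, 10.20 and 10.13 in L26, against 10.55, 10.45 and 10.41 in wild type (-0.29, SE 0.06, adjusted p = 0.0219). Dnm3, a dynamin of membrane scission, fell by 0.24 (SE 0.05, adjusted p = 0.0349), and its 5 probe sets ranged from -0.60 to -0.21. Erc1, an active zone scaffold, rose by 0.33 (adjusted p = 0.0356), but another of its probe sets, dim at a mean level of 6.04, fell by 0.50. Itsn1, an endocytic scaffold, rose by 0.28 (adjusted p = 0.044, but 0.0553 over probe sets), with other probe sets from -0.28 to 0.28. The count of 4 in 53 fell to 0 without L26 replicate 2 or without wild type replicate 2, to 1 without L26 replicate 3, without wild type replicate 1 or with the replicate block, and to 2 without wild type replicate 3.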

How the data were processed

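Hippocampal RNA of 6 mice was read on Affymetrix Mouse Genome 430 2.0 arrays, 3 per group. The deposited table gives log2 expression for each probe set, made with RMA and the affy package per the submitters' processing notes, with versions not given in the sources used here. They hold no detection calls, and RMA tends to compress differences of dim transcripts. Of 45101 probe sets 64 controls were left out. Of the 45037 tested, 34945 had 1 gene symbol, 932 several and 9160 none in the platform annotation. The brightest probe set represented each of 18193 genes. For 5 members (Syt11, Stx1a, Rab3a, Syn3 and Cadps) it ends in _x_at or _s_at, so related transcripts may also reach it. L26 was compared with wild type by limma 3.58.1 in R 4.3.3 (lmFit, eBayes, 2-sided), with Benjamini-Hochberg adjustment over all genes, or over all probe sets where stated. SEs and 95% intervals come from that fit. The code was tested on simulated data. For arrays their number, not depth, limits precision. Members with an adjusted p under 0.05 are given with all array values and probe sets, those with an unadjusted p under 0.05 and no overlap with values or means, and others in brief. At most 2 markers of a list and the vesicle cycle genes past the threshold are named. Alternatives were a replicate block, each array left out, repeated quantile normalization, median centring, an intensity trend with robust prior, leaving out the 40% dimmest probe sets or those ending in _x_at or _s_at, the mean of a gene's probe sets and a threshold of 0.1. The members and lists were chosen with earlier results of these data known. The labels share replicate numbers across groups, but same-numbered arrays did not deviate together (correlations 0.03, -0.09 and 0.16), so they were not treated as pairs.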

Additional observations from a re-analysis of the deposited data

How the results depend on the processing

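Of 41 members 6 passed, and the count stayed within 1.5 times in most alternatives. However, it was 12 (29.3%, against 7.46% of all genes) with an intensity trend and robust prior. At an adjusted p threshold of 0.1 it was 13 (31.7%, against 9.53% of all genes). Lower members (5) became 9 with arrays centred on their medians, 9 with the trend and 10 at the threshold of 0.1. Higher members (1) became 0 with the replicate block or with centred arrays, 2 after repeated quantile normalization, without dim probe sets or with the mean of all probe sets, and 3 with the trend or at 0.1. Leaving out 1 array at a time gave 4 to 5 members in all, 4 to 5 lower and 0 to 1 higher (1 being Cadps2 without wild type replicate 1). Unc13c, Cplx3 and Rab3b passed in every alternative run. The other vesicle cycle genes (4) had 1 with the replicate block, 2 with the mean of all probe sets, 7 with the trend, 8 at 0.1 and 0 to 3 with 1 array left out. Over all genes the share passing was 3.49% with the block and 5.3% with the mean of all probe sets. It was 2.23% to 3.85% with 1 array left out, 5.89% with centred arrays, 5.44% after repeated quantile normalization and 8.57% without dim probe sets. Shares of all genes by direction are not at hand for the alternatives. The median difference of the members (-0.08) was -0.11 with centred arrays, -0.093 with the mean of all probe sets and -0.107 to -0.078 with 1 array left out. Member probe sets past the threshold (9) were 18 with the trend, for which no share over all probe sets is at hand.

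Signs of some differences near 0, none past the threshold, turned. With 1 array left out at a time the ranges crossed 0 for Syp (-0.123 to 0.017), Syn1 (-0.035 to 0.035), Syn2 (-0.0033 to 0.032), Syn3 (-0.133 to 0.0067), Slc17a7 (-0.133 to 0.072), Rab3a (-0.063 to 0.037) and Bsn (-0.0017 to 0.068). Centring turned Syn1 (-0.02) and Syn2 (-0.01). The mean of all probe sets turned Syp (0.13), Syn2 (-0.17), Syn3 (0.0089) and Snap25 (0.05), and Syn3 had 0.077 without probe sets ending in _x_at or _s_at. The replicate block, whose numbers are not known to be pairs, changed no other member's call than that of Unc13b. The causes of these changes were not tested. The values carry no detection calls, so whether a dim probe set lies above background is not known.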
